A study of Homo sapiens with 12 samples.

Results

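The effect of 2 histone demethylase inhibitors given together was compared between 2 prostate cancer lines, labelled C4-2 and LNCaP, as a difference of differences. The combination effect of a line was the log2 change from cells with androgen alone to cells with androgen and both inhibitors, and the effect in the libraries labelled LNCaP was subtracted from the effect in C4-2. The comparison used 8 of the 12 libraries of the series, and the difference was tested for 19763 of the 60675 genes listed in each file. Genes were then sorted into those that responded in both lines, in 1 line, or in opposite ways.

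LNCaP is an androgen-dependent line from a prostate cancer metastasis, and C4-2 (LNCaP:C42 in the labels) is its castration-resistant derivative. Each of the 4 groups held 2 libraries of polyadenylated RNA. The R1881 groups of both lines received the synthetic androgen R1881 at 1 nM, and the combination groups received R1881 with namoline, an inhibitor of the demethylase KDM1A, at 50 µM, and TCE-5002, an inhibitor of the demethylase KDM7A. The study describes TCE-5002 as selective for KDM7A but as also targeting PHF8 and KDM2A. TCE-5002 is listed at 100 µM in the series text and at a lower dose in the methods of the study, so its dose is uncertain. All groups therefore share R1881, and none is without androgen. Treatment lasted 72 h. Each line stands for a single clone or culture history, and the methods of the study call the 2 libraries of a group biological replicates, while the labels do not say whether they came from separate cultures. The adjusted p-values measure the spread between these libraries.

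Library totals ran from 14791602 to 20690819 counts. Doubts attach to the libraries labelled LNCaP. The alignment named in the header of combination replicate 1 carries namoline without TCE-5002, whereas its label carries both inhibitors. It was kept as labelled, and part of the results that rest on it are also given without it. The lines also differed in identity markers. The mesenchymal gene VIM (vimentin) stood at 653 and 747 CPM (counts scaled to the size of the library) in the libraries labelled LNCaP with R1881 against 2.75 and 2.35 CPM in C4-2 with R1881, and the 14 epithelial markers summed to 294 and 290 CPM against 3435 and 3642 CPM. The 14 mesenchymal markers summed to 1090 and 1178 CPM against 354 and 372 CPM, and among them COL6A1 went the other way, at 123 and 112 CPM against 319.7 and 337 CPM. CDH2, at 52.4 and 48.8 CPM, and ZEB2, at 47.8 and 52.3 CPM, had no count in C4-2 with R1881. The 10 prostate luminal markers were all at 1 CPM or more in both lines. With R1881 they summed to 841 and 749 CPM in the libraries labelled LNCaP against 3492 and 3451 CPM in C4-2, though KLK3 and ACP3 went the other way. Of 10 neuroendocrine markers, 7 were at 1 CPM or more in each group labelled LNCaP and 3 in each C4-2 group. Their sums with R1881 were 86.0 and 89.0 CPM against 14.1 and 13.8 CPM. No basal marker of 6 was at 1 CPM or more. Of 10 leukocyte markers, 2 were in each group labelled LNCaP and 1 in each C4-2 group. At most 1 endothelial marker of 6 reached that level. These groups are called the LNCaP-labelled libraries below. What part this divergence has in the differences was not tested, and the line and whatever else separates the libraries cannot be told apart.

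By way of background, KDM1A and KDM7A remove methyl groups from lysines of histone tails and so change whether nearby genes are open to transcription. KDM1A also works with nuclear receptors at androgen-responsive genes. Responses to such inhibitors are often read through programs with well-known target sets. The p53 program arrests the cell cycle and promotes death, the G2/M program carries cells through mitosis, the integrated stress response adjusts amino acid supply, and the NRF2 program handles oxidants. Whether the same inhibitors move the same programs in a castration-resistant line and in libraries labelled as its parent is the question of this comparison. In bulk RNA, fewer cells of a state and less RNA per cell cannot be told apart.

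Genes with the same call in both lines were a minority of the genes called in either. A gene was called at an edgeR adjusted p-value under 0.05 with at least a 2-fold change, for each effect and for the difference. The combination was called for 4156 genes in C4-2 (21.0% of genes tested, with 7.60% higher and 13.4% lower) and for 3518 genes in the LNCaP-labelled libraries (17.8%, with 6.98% higher and 10.8% lower). The difference was called for 25.4% of genes tested, 11.5% positive (C4-2 above the LNCaP-labelled libraries) and 13.9% negative. With no fold condition the shares were 52.1% in C4-2, 53.1% in the LNCaP-labelled libraries and 47.7% for the difference, of which 31.1%, 35.3% and 22.3% of genes tested were under 2-fold. Of 930 genes called in both lines, 601 moved the same way and 329 (35.4%) in opposite ways. Opposite genes were 148 of the 1501 higher in C4-2 and 181 of the 2655 lower there. For comparison, 10.8% of all genes tested were lower in the LNCaP-labelled libraries and 6.98% were higher. The opposite counts lie near those shares. Of the 2655 genes lower in C4-2, 408 were also called lower in the LNCaP-labelled libraries with no called difference, and 47 with one that was called. Of the 1501 higher in C4-2, these counts were 126 and 20. The same shares of all genes tested, 10.8% lower and 6.98% higher, stand beside them. The genes with the same call made up 14.5% of the C4-2 calls and 17.1% of the LNCaP-labelled calls.

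**Figure D1:**
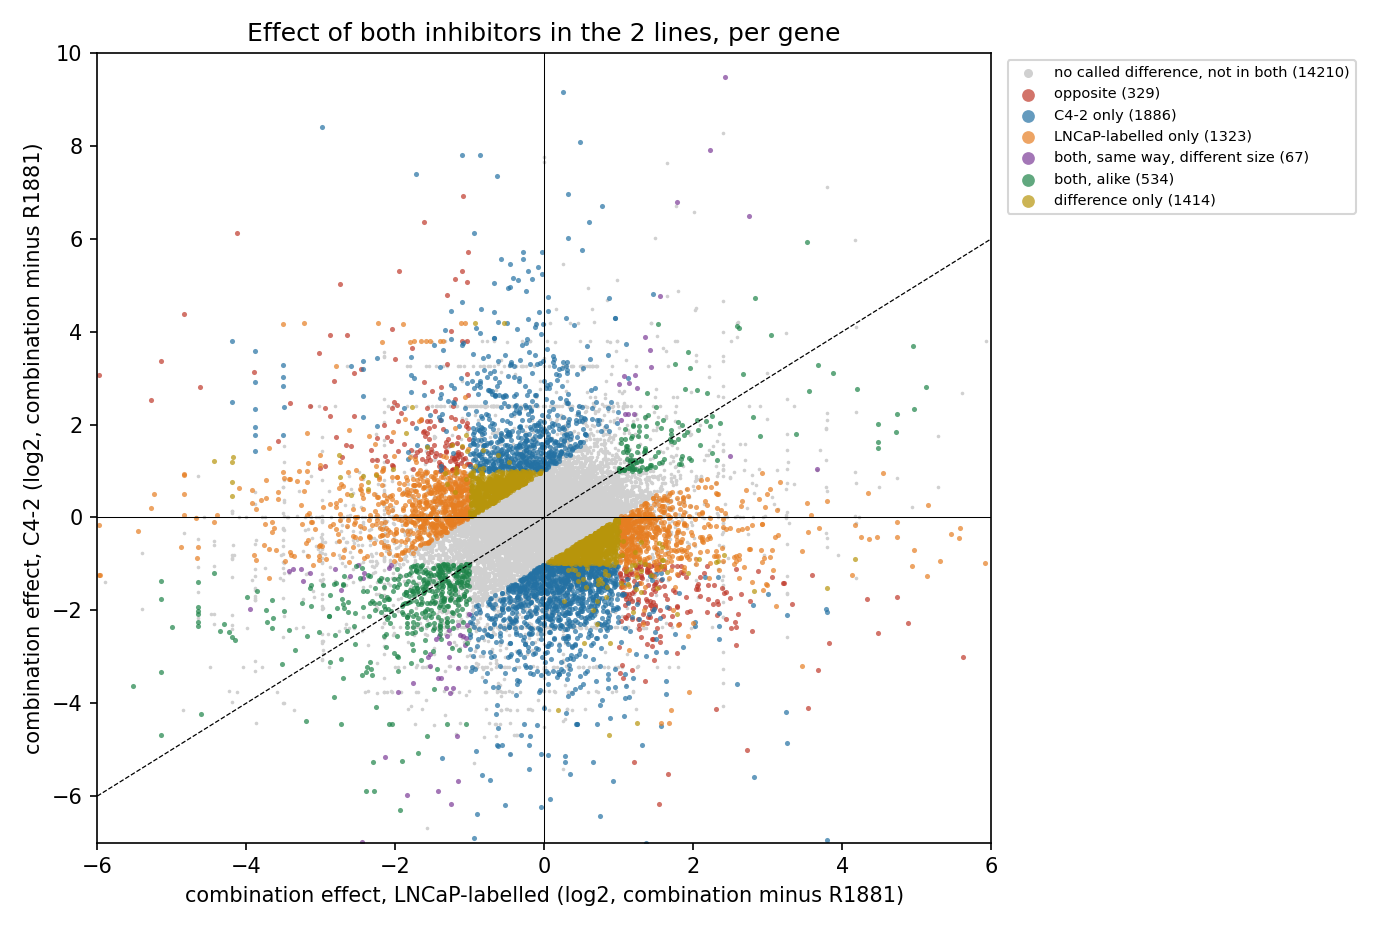
Combination effect of each gene in C4-2 (vertical axis, log2, combination minus R1881) against the LNCaP-labelled libraries (horizontal axis, same scale), 1 point per gene coloured by response class, with the dashed line at equal effects. The 534 genes that answered alike lie along the line, the 329 opposite genes fill the upper left and lower right corners, and 29 genes lie outside the axes.

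The classes rest on the test of the difference, not on passing in one line and failing in the other. C4-2 only, meaning called in C4-2, not called in the LNCaP-labelled libraries and with a called difference, held 1886 genes, 725 higher and 1161 lower. LNCaP-labelled only held 1323 genes, 583 higher and 740 lower. Of the 3226 genes called in C4-2 alone, 58.5% had a called difference, as had 51.1% of the 2588 genes called in the LNCaP-labelled libraries alone, and the other 2605 genes were called in 1 line without a shown difference. In 534 genes the effects went the same way with no called difference (126 higher and 408 lower), and in 155 of these (29%) the 95% interval of the difference lay within 2-fold either way. A further 67 genes moved the same way by different amounts, and 1414 had a called difference with neither effect called. Genes at 1 CPM or more on average in both lines made up 68.9% of C4-2 only, 72.4% of LNCaP-labelled only and 57.4% of the opposite class, against 66.4% of all genes tested.

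**Figure D2:**
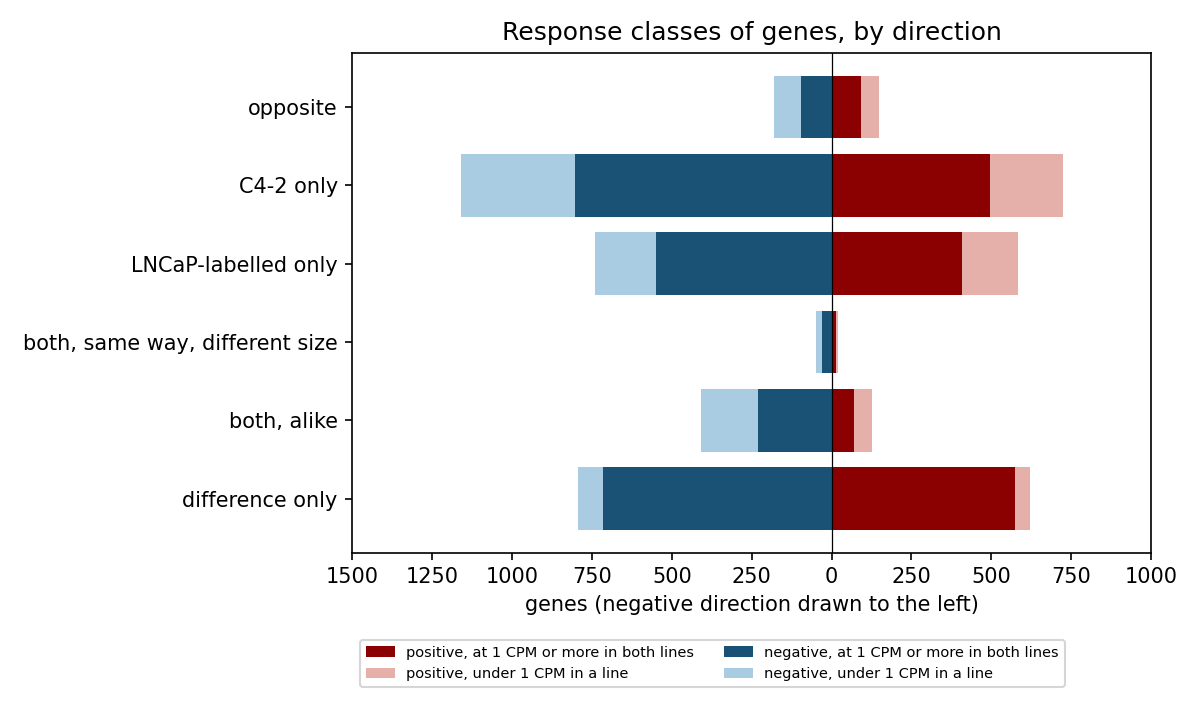
Number of genes in each response class, with positive effects to the right and negative effects to the left (the effect in C4-2, in the LNCaP-labelled libraries for that line's class, and the difference for the last class), split by whether the gene averaged 1 CPM or more in both lines. Among the classes with a called difference, C4-2 only is the largest, with 1161 genes lower and 725 higher.

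Without LNCaP-labelled combination replicate 1, whose header is at odds with its label, 5277 genes had a called difference, and 4566 of the 5019 calls were kept. The opposite class then held 328 genes, of which 272 were in the class before. C4-2 only held 1813 genes and LNCaP-labelled only 1562.

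The transcripts of the inhibited enzymes did not follow each other. KDM7A (chromosome 7, 140084746 to 140177035, GRCh38) stood at 106 and 101 CPM in C4-2 with R1881 and at 241 and 275 CPM with the combination. In the LNCaP-labelled libraries it was at 58.8 and 65.7 CPM and then at 58.9 and 55.5 CPM, so only in C4-2 did the groups stand apart, and KDM7A belongs to C4-2 only. KDM1A (chromosome 1, 23019448 to 23083689) was at 78.8 and 76.6 CPM and then 71.9 and 71.9 CPM in C4-2, against 122 and 113 CPM and then 148 and 170.0 CPM in the LNCaP-labelled libraries. The KDM1A difference of -0.55 (SE 0.12, edgeR adjusted p 0.000521) was under 2-fold. PHF8, a close relative of KDM7A that TCE-5002 also targets, had a difference of -0.65 (SE 0.11, edgeR adjusted p 2.01e-05), also under 2-fold. KDM2A, a related demethylase and also a target of TCE-5002, had a difference of 0.97 (SE 0.12), which passed 2-fold under 10 of the alternative settings.

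Of the 23 histone demethylases and partners tested, 4 had a called positive and 1 a called negative difference (21.7% called, against 25.4% of all genes tested). JMJD6 (chromosome 17), an oxygenase of the same fold, went from 38.2 and 42.6 CPM to 84.9 and 95 CPM in C4-2, and from 41 and 41 CPM to 27 and 27 CPM in the LNCaP-labelled libraries, a difference of 1.76 (SE 0.14, edgeR adjusted p 1.65e-10). KDM3A, which acts on lysine 9 of histone H3 and as a coactivator at androgen targets, differed by 1.45 (SE 0.12) with neither effect called. KDM4C, another demethylase of that lysine, fell in C4-2 from 29.3 and 32.1 CPM to 13.7 and 14.9 CPM and differed by -1.59 (SE 0.21, edgeR adjusted p 3.75e-07). The remaining positive call in the list was KDM5B, at 1.09.

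The opposite class held 148 genes that rose in C4-2 and fell in the LNCaP-labelled libraries, and 181 with the reverse. Protein-coding genes made up 75% of the former and 41.4% of the latter, against 73.7% of genes tested. The 10 protein-coding genes with the largest differences on either side, among those at 10 CPM or more in a group, at 1 CPM or more in each line and with no overlap between the R1881 and combination libraries of a line, are described here.

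METRNL (chromosome 17, 83079691 to 83095119), which encodes a secreted factor of fat and muscle, stood at 2.01 and 2.48 CPM in C4-2 with R1881 and at 35.4 and 38.4 CPM with the combination. In the LNCaP-labelled libraries it went from 22.2 and 18.4 CPM to 5.94 and 4.02 CPM. The line with the lower level under R1881 thus had the higher level under the combination, and the difference was 6.09 (SE 0.26, edgeR adjusted p 1.01e-15). PHLDA3, an inhibitor of AKT signalling that p53 induces, showed the same crossing, from 8.25 and 7.98 CPM to 83.3 and 89.0 CPM in C4-2 and from 67.5 and 73.5 CPM to 18.4 and 16.7 CPM in the LNCaP-labelled libraries. Its difference was 5.41 (SE 0.16, edgeR adjusted p 6.55e-19). LIF, a cytokine of the interleukin-6 family, rose from 0.884 and 1.27 CPM to 17.2 and 17.2 CPM in C4-2 and fell from 5.17 and 5.11 CPM to 1.85 and 2.41 CPM in the LNCaP-labelled libraries (difference 5.27, SE 0.33).

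PCSK1N, which encodes an inhibitor of prohormone processing, rose in C4-2 from 0.393 and 1.07 CPM to 10.5 and 8.69 CPM and went from 16.5 and 20.9 CPM to 11.1 and 7.30 CPM in the LNCaP-labelled libraries. Its opposite call was lost with a correction for transcript GC content, where the LNCaP-labelled effect was 0.12. The call was also lost without LNCaP-labelled combination replicate 2 (-0.76) or R1881 replicate 2 (-0.90). ACTA2, a smooth muscle actin, differed by 6.10 (SE 0.42), from 0.196 and 0.402 CPM to 7.82 and 8.21 CPM in C4-2 and from 11.8 and 17.7 CPM to 6.77 and 5.20 CPM in the LNCaP-labelled libraries. ACTA2 lies on chromosome 10 from 88935074 to 88991390 and overlaps FAS, which rose in C4-2, and the counting did not use strand, so reads in the overlap cannot be assigned. The same holds for other genes named here that overlap a neighbour, namely SULF2, MDM2, TP53I3, CDC25C, CENPA, PRIM1, FEN1, SLC2A4, HOXB5, DDIT3, FTH1, SRXN1, JUNB, BHLHE40 and SLC2A1.

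In the reverse direction, DDC (chromosome 7, 50458436 to 50565457), the decarboxylase that makes dopamine and serotonin, had the largest difference. It fell from 72.4 and 67.1 CPM to 20.4 and 17.9 CPM in C4-2 and rose from 0.237 and 0.139 CPM to 1.60 and 2.25 CPM in the LNCaP-labelled libraries (difference -5.19, SE 0.42, edgeR adjusted p 1.51e-10). All LNCaP-labelled values of DDC were below those of C4-2. PIP5KL1, a lipid kinase relative, fell from 15.3 and 17.4 CPM to 2.42 and 3.10 CPM in C4-2 and rose from 1.52 and 1.07 CPM to 3.83 and 3.81 CPM in the LNCaP-labelled libraries (difference -4.12, SE 0.34). CARMIL3, a regulator of actin capping, stood at 3.24 and 2.21 CPM and then 1.18 and 0.608 CPM in C4-2, against 1.99 and 2.18 CPM and then 11 and 11.8 CPM in the LNCaP-labelled libraries (difference -4.05, SE 0.41). SH2D3C, an adaptor of integrin signalling, differed by -3.40 (SE 0.42). HMMR, a spindle protein, completed this side and is described with the mitotic genes.

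**Figure D3:**
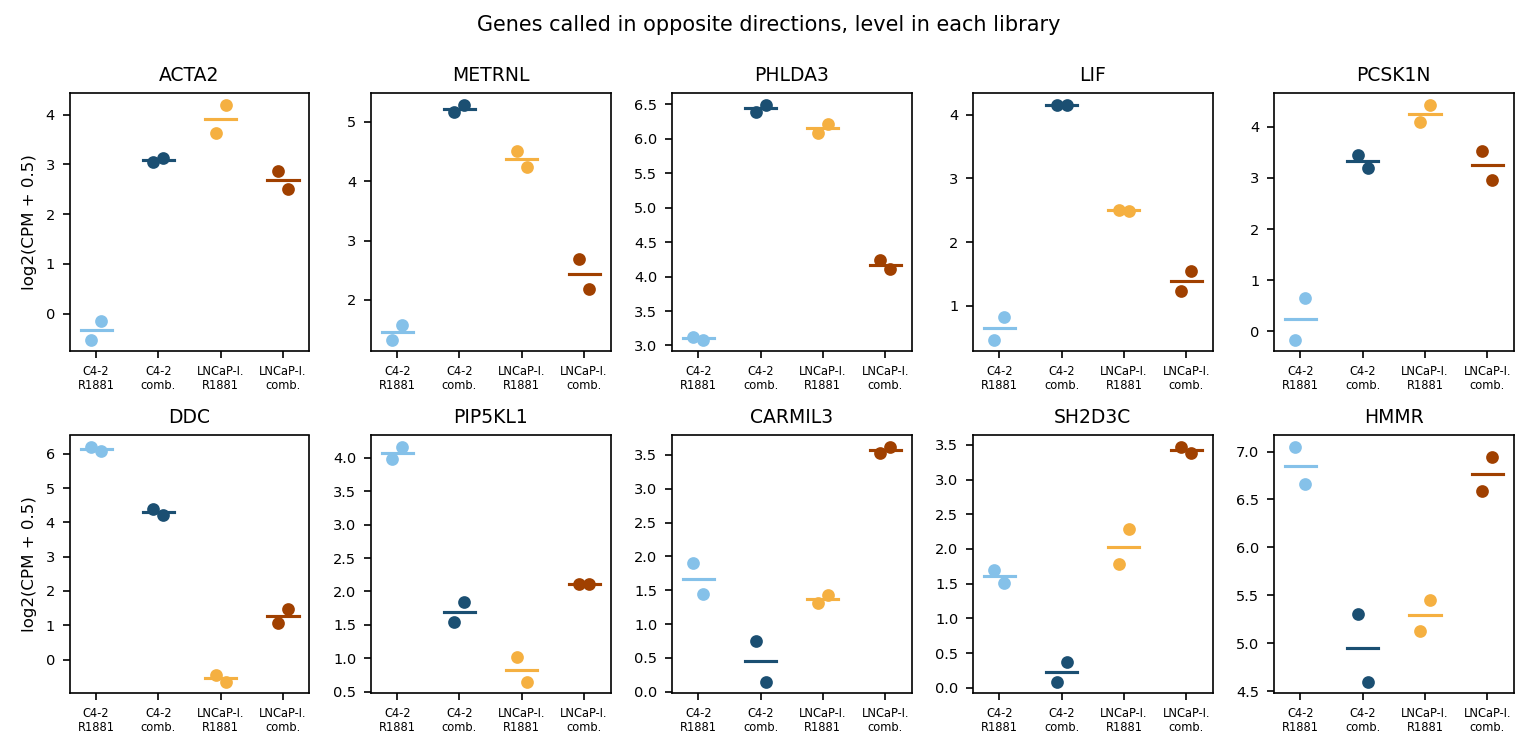
Level of 10 opposite genes in each of the 8 libraries, as log2(CPM + 0.5), with the bar at the mean of the 2 libraries of a group (comb., combination; LNCaP-l., LNCaP-labelled). In the upper row C4-2 rises and the LNCaP-labelled libraries fall, in the lower row the reverse, and the libraries of a line do not overlap because the genes were chosen so.

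Most p53 targets were called higher in C4-2, and none was called higher in the LNCaP-labelled libraries. Of the 30 genes, 25 were called higher in C4-2 (background 7.60%), where 29 effects were above 0. In the LNCaP-labelled libraries 10 effects were above 0, none was called higher (background 6.98%) and 6 were called lower (background 10.8%). The difference was called positive for 24 of 30 (background 11.5%), with a median of 2.56 over the list against -0.10 over all genes tested. CDKN1A, the cyclin-dependent kinase inhibitor p21, went from 61.0 and 76.7 CPM to 1443 and 1500.3 CPM in C4-2, and from 124 and 132 CPM to 87.5 and 74.0 CPM in the LNCaP-labelled libraries, a difference of 5.09 (SE 0.15, edgeR adjusted p 6.55e-19). MDM2, the ubiquitin ligase that restrains p53, had 155 and 145 CPM and then 561 and 561 CPM in C4-2, against 267 and 287 CPM and then 163 and 179 CPM (difference 2.59, SE 0.12). BTG2, an antiproliferative factor, differed by 4.48 (SE 0.16). In CDKN1A, MDM2 and BTG2 the effects in the LNCaP-labelled libraries, at -0.67, -0.69 and -0.96, were below 0 but under 2-fold.

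Opposite calls were made in 5 p53 targets, namely PHLDA3, AEN, BBC3, TP53I3 and GDF15. AEN, an apoptosis-enhancing nuclease, stood at 27.9 and 32.1 CPM and then 208 and 212 CPM in C4-2, and at 210.0 and 203 CPM and then 89.0 and 69.9 CPM in the LNCaP-labelled libraries (difference 4.19, SE 0.14, edgeR adjusted p 9.32e-18). BBC3, the death factor PUMA, went from 6.39 and 5.70 CPM to 33.5 and 41.6 CPM in C4-2 and from 65.6 and 67.6 CPM to 36.2 and 29.7 CPM in the LNCaP-labelled libraries. Its LNCaP-labelled fall of -1.02 was -0.14 after the GC correction, whereas its difference stayed called at 2.87. GDF15, a stress cytokine, stood at 279 and 355 CPM and then 996 and 1131 CPM in C4-2, against 265 and 262 CPM and then 98.6 and 76.0 CPM. TRIM22, an antiviral ligase, had the largest positive effect of the list in C4-2, from 0.0982 and 0.201 CPM to 7.60 and 8.57 CPM, with 0.807 and 1.07 CPM and then 0.959 and 1.66 CPM in the LNCaP-labelled libraries.

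Other members had no called difference. RPS27L, a ribosomal protein relative, had effects of 0.59 and 0.74, and CCNG1, cyclin G1, had effects of 1.30 and 0.96. Among the 24 with a called difference, SESN2, a sestrin that restrains growth signalling, fell in the LNCaP-labelled libraries alone, from 452 and 450.4 CPM to 176 and 142 CPM. In the LNCaP-labelled libraries 2 members were called higher without combination replicate 1, and 2 without R1881 replicate 2. The count of called differences was 26 of 30 without LNCaP-labelled combination replicate 1, 24 without replicate 2 and 26 after the GC correction. Of the other apoptosis genes, the BCL2 family had 6 of 15 positive and no negative called differences (backgrounds 11.5% and 13.9%). BAK1, a pore former of mitochondria, went from 25.1 and 28.7 CPM to 54.4 and 61.6 CPM in C4-2, and from 41.6 and 37.5 CPM to 24.1 and 18.7 CPM in the LNCaP-labelled libraries (difference 2.00, SE 0.17). The LNCaP-labelled effect of BAK1, at -0.89, passed 2-fold without combination replicate 1 (-1.07) and without R1881 replicate 2 (-1.01).

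**Figure D4:**
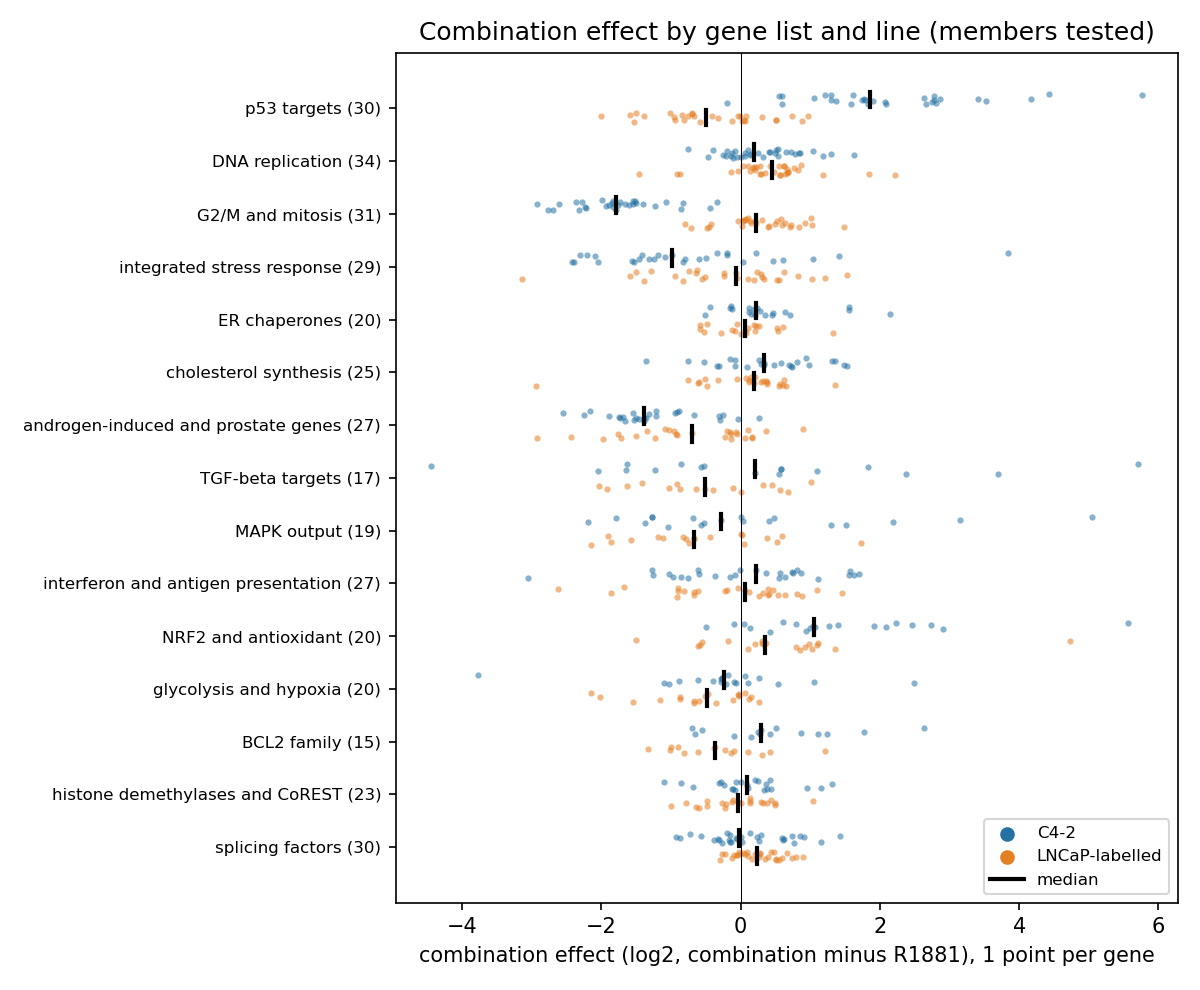
Combination effect (log2, combination minus R1881) of each tested member of 15 gene lists, in C4-2 (blue) and in the LNCaP-labelled libraries (orange), with the black bar at the median. Of the 30 p53 targets, 29 lie right of 0 in C4-2 and 20 left of 0 in the LNCaP-labelled libraries, and all 31 G2/M genes lie left of 0 in C4-2 against 6 in the LNCaP-labelled libraries. Medians of lists that hold a gene with no count in a group depend on how such genes are fitted.

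The G2/M and mitosis genes fell in C4-2, and most had no call in the LNCaP-labelled libraries. Of 31 members, 27 fell in C4-2 (background 13.4%). In the LNCaP-labelled libraries 3 were called higher (background 6.98%), none was called lower (background 10.8%) and 28 were not called. The difference was called negative for 28 members (background 13.9%), and the median was -2.09. CDC25C, the phosphatase that opens mitosis, stood at 15.7 and 12.5 CPM and then 2.48 and 1.22 CPM in C4-2, against 20.4 and 22.2 CPM and then 20.1 and 22.8 CPM in the LNCaP-labelled libraries (difference -2.93, SE 0.28, edgeR adjusted p 2.09e-09). CCNB1, cyclin B1, went from 132 and 110.3 CPM to 41.7 and 38.2 CPM in C4-2 and from 89.0 and 94.4 CPM to 90.9 and 112 CPM. CENPA, the centromeric histone, had effects of -2.77 and 0.04. The LNCaP-labelled effects of CDC25C, CCNB1 and CENPA lay between 0.01 and 0.15.

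HMMR and DLGAP5, both of the mitotic spindle, were called in opposite ways. HMMR (chromosome 5, 163460203 to 163491945) stood at 132 and 101 CPM and then 39.1 and 23.8 CPM in C4-2, and at 34.4 and 43.4 CPM and then 96.0 and 123 CPM in the LNCaP-labelled libraries, a difference of -3.38 (SE 0.40, edgeR adjusted p 0.00075). DLGAP5 (chromosome 14, 55148112 to 55191678) went from 62.4 and 53.2 CPM to 16 and 8.75 CPM in C4-2 and from 43.3 and 52.2 CPM to 87.8 and 107 CPM, a difference of -3.25 (SE 0.28). BUB1B, a spindle checkpoint kinase, was the third opposite member. The rises in the LNCaP-labelled libraries were not stable, since no member of the list was called there without combination replicate 2, and 1 was without R1881 replicate 1 or after the GC correction. The differences of HMMR and DLGAP5 stayed called in these settings. Among the members with no called difference were CDK1, with effects of -0.34 and 0.59, and the proliferation marker MKI67, with effects of -1.76 and -0.80 (adjusted p 0.125 for the edgeR test of its difference).

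Promoters of mitotic genes are known for a pair of elements, the cell cycle homology region (CHR) and CCAAT boxes. In windows from 250 bases before to 50 bases after the RefSeq start (GRCh38.p14), a CHR (TTTGAA or TTCGAA on either strand) was found for 17 of the 26 list members with a window (65.4%) and for 11% of 11664 protein-coding genes tested. CCAAT was found for 22 of 26 (84.6%) and for 36.5% of all. Both were found for 16 of 26 and for 4.67% of all. Only the first listed window of a gene was used, and 3430 of the genes tested had several. Across the classes, CHR letters stood in 16.2% of windows of genes that fell in C4-2 only and 9.30% of those that rose. They stood in 18.5% (10 of 54) of opposite genes that fell in C4-2 and 9.41% of those that rose. Among genes that answered alike the shares were 14% for falls and 5.77% for rises. In LNCaP-labelled only they were 13.8% for rises and 9.4% for falls. The C4-2 only and opposite falls include members of the list. The stretches below are the 150 bases before the start of the 3 list members with the largest differences that hold both there, in capitals where CHR or CCAAT letters were found on either strand. HMMR is from chr5:163460482-163460631 (plus strand), DLGAP5 from chr14:55191586-55191735 (minus strand) and CENPA from chr2:26785906-26786055 (plus strand).
HMMR: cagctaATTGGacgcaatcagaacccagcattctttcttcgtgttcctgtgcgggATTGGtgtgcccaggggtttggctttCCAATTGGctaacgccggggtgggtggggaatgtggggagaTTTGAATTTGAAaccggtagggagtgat
DLGAP5: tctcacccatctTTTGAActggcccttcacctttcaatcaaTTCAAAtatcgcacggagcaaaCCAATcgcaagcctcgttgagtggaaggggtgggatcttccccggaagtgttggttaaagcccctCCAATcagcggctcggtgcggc
CENPA: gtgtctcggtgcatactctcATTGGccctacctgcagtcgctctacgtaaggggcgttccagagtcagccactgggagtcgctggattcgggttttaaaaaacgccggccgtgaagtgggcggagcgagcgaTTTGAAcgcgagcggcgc
The CHR letters of HMMR begin 28 and 22 bases before the start and those of CENPA 18 bases before it, whereas in DLGAP5 they begin 138 and 109 bases before the start. These are matches of letters, and a match shows neither binding nor a cause.

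DNA replication genes had fewer called differences. The list had 2 positive and 4 negative called differences among 34 members (17.6% called, against 25.4% of all genes tested), a median difference of 0.02, and a median whose sign varied with the setting (-0.06 to 0.16). E2F letters (TTTCCCGC, TTTGGCGC or TTTCGCGC) were found in 17 of its 29 windows (58.6%), against 4.42% of all. Of the 6 members with a called difference, 4 were in LNCaP-labelled only. POLE2, a subunit of polymerase epsilon, stood at 6.58 and 5.63 CPM and then 4.50 and 4.86 CPM in C4-2, against 8.50 and 6.87 CPM and then 32.5 and 38.6 CPM in the LNCaP-labelled libraries (difference -2.61, SE 0.25, edgeR adjusted p 2.21e-09). PRIM1, the primase subunit, rose there from 31.3 and 38.6 CPM to 117 and 134 CPM. FEN1, the flap endonuclease, fell there from 316 and 303 CPM to 113 and 111 CPM. LIG1, the ligase that joins Okazaki fragments, rose in C4-2 alone, from 8.10 and 8.85 CPM to 26.3 and 26 CPM.

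Genes of C4-2 only were ranked among those that met the conditions for named genes given below and had an LNCaP-labelled effect within 0.5 of 0. The largest rises were in SDK1, SULF2, FAS and FGF13. SDK1, a cell adhesion protein of synapses, went from 0.147 and 0.0671 CPM to 4.45 and 4.68 CPM in C4-2, and stood at 22.9 and 21.1 CPM and then 22.5 and 20.6 CPM in the LNCaP-labelled libraries. SULF2, a heparan sulfatase, rose from 0.344 and 0.738 CPM to 15.4 and 15 CPM, with 44.5 and 41.3 CPM and then 35.2 and 36.9 CPM in the LNCaP-labelled libraries. In SDK1 and SULF2 the combination libraries of C4-2 remained below the LNCaP-labelled ones. FGF13, an intracellular fibroblast growth factor relative, reached 41.4 and 38.4 CPM from 2.11 and 2.35 CPM in C4-2, against 1.23 to 2.43 CPM in the LNCaP-labelled libraries (difference 4.27, SE 0.36, edgeR adjusted p 2.94e-10). FAS, the death receptor, went from 2.21 and 2.15 CPM to 39.9 and 38.7 CPM, with 7.78 to 10.8 CPM in the LNCaP-labelled libraries.

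Under the same conditions, the largest falls of C4-2 only were in PLAC1, PIF1, PRKAR2B and MAP2K6. PLAC1, a trophoblast protein, fell from 3.68 and 3.55 CPM to 0.225 and 0.182 CPM in C4-2 and stood between 12.3 and 13.0 CPM in the LNCaP-labelled libraries. PIF1, a DNA helicase, fell from 17.8 and 13.7 CPM to 1.58 and 0.729 CPM, against 2.62 to 3.70 CPM. PRKAR2B, a regulatory subunit of protein kinase A, fell from 39.7 and 37.1 CPM to 4.62 and 3.16 CPM, with 16 to 19.6 CPM in the LNCaP-labelled libraries (difference -3.19, SE 0.22, edgeR adjusted p 8.07e-12). MAP2K6, a kinase upstream of p38, went from 25.4 and 21.1 CPM to 3.55 and 2.25 CPM. All 8 genes kept their class in the 18 settings compared.

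The mirror class, LNCaP-labelled only, was ranked under the same conditions, with the C4-2 effect within 0.5 of 0. Its rises were then led by FAM216A, ZNF33B, EID2B and POLE2. ZNF33B (chromosome 10, 42574185 to 42638568), a zinc finger protein, went from 18.7 and 17.8 CPM to 92.9 and 100.4 CPM in the LNCaP-labelled libraries and stood at 81.7 and 77.0 CPM and then 67.3 and 70.9 CPM in C4-2. The LNCaP-labelled combination libraries of ZNF33B thus lay above all C4-2 libraries, and its R1881 libraries below them. FAM216A, of no established role and overlapping GPN3, reached 79.8 and 98.5 CPM from 13.4 and 13.6 CPM, against 11.5 to 16 CPM in C4-2 (difference -2.95, SE 0.19, edgeR adjusted p 3.15e-12). EID2B, an inhibitor of differentiation, went from 2.18 and 2.23 CPM to 10.3 and 11.7 CPM, against 6.30 to 8.45 CPM in C4-2.

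Under the same conditions, the falls of this class were led by SERTAD1, BHLHA15, IRX4 and EPHB3. SERTAD1, a regulator of cyclin D kinases, went from 27.6 and 26.4 CPM to 2.24 and 1.66 CPM in the LNCaP-labelled libraries and stood at 4.96 and 5.77 CPM and then 6.81 and 7.05 CPM in C4-2 (difference 4.18, SE 0.27, edgeR adjusted p 2.53e-12). IRX4, a homeobox factor of prostate epithelium, fell from 4.84 and 5.34 CPM to 0.703 and 0.376 CPM, against 39.0 to 50.5 CPM in C4-2. EPHB3, an ephrin receptor, started at like levels in both lines (14.7 and 14.4 CPM against 13.9 and 15.4 CPM) and reached 1.73 and 1.5 CPM in the LNCaP-labelled libraries against 10.1 and 10.6 CPM in C4-2. BHLHA15, a secretory cell factor, fell from 1.71 and 2.04 CPM to 0.192 and 0.107 CPM.

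Genes that answered alike were fewer, and 408 of the 534 fell. GPCPD1, a phosphodiesterase of choline metabolism, rose from 46.8 and 37.8 CPM to 153 and 169 CPM in C4-2 and from 25.9 and 27.0 CPM to 71.5 and 85.4 CPM in the LNCaP-labelled libraries, with a 95% interval of the difference from 0.05 to 0.66. SLC2A4, the insulin-responsive glucose transporter, rose by 1.89 and 1.70, and HSD17B14, a steroid dehydrogenase, by 2.22 and 1.39. The 95% interval of the HSD17B14 difference ran from 0.28 to 1.38 (edgeR adjusted p 0.0124). Its difference of 0.83 thus stayed uncalled only for being under 2-fold. The HSD17B14 difference reached 1.04 without LNCaP-labelled R1881 replicate 2, and was then called. DDX47, an RNA helicase that overlaps APOLD1, rose by 1.83 and 1.91.

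S100P, a calcium-binding protein that androgen induces, fell from 137 and 127 CPM to 15.4 and 16.7 CPM in C4-2 and from 5.74 and 3.25 CPM to 1.02 and 0.376 CPM in the LNCaP-labelled libraries. Its interval, from -1.26 to 0.62, does not exclude a 2-fold difference. HOXB5, a homeobox factor, fell by 2.72 and by 2.54 on the log2 scale, and KLHDC7B, a kelch protein, by 2.56 and 2.15. The KLHDC7B difference was called after the GC correction, at -1.03. MAP4K1, a kinase of blood cells, fell by 2.45 and 2.65, with an interval from -0.95 to 1.35.

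Of the 67 genes that moved the same way by different amounts, DIO3 (chromosome 14, 101561351 to 101563452), the deiodinase that inactivates thyroid hormone, stood out in size. It stood at 0.540 and 1.34 CPM in C4-2 with R1881 and at 618 and 663 CPM with the combination, and went from 1.19 and 1.21 CPM to 7.35 and 5.63 CPM in the LNCaP-labelled libraries. The levels with R1881 were low and alike in both lines, and the difference of the effects was 7.07 (SE 0.41, edgeR adjusted p 2.81e-13). With all 12 libraries the LNCaP-labelled effect of DIO3, at 2.37, was not called (edgeR adjusted p 0.078). DIO3 was then in C4-2 only, with a difference of 7.20 still called. HSPB8, a small heat shock protein, rose by 3.88 in C4-2 and by 1.35 in the LNCaP-labelled libraries. WNT5A, a Wnt ligand, fell from 6.97 and 5.16 CPM to 0.788 and 0.729 CPM in C4-2 and from 23.6 and 27.5 CPM to 10.9 and 10.2 CPM in the LNCaP-labelled libraries (difference -1.73, SE 0.34). TNS3, a focal adhesion protein, differed by -1.68 (SE 0.28), and its LNCaP-labelled fall of -1.06 came under 2-fold, at -0.87, after the GC correction.

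Androgen-induced and prostate genes divided among the classes. Of 27 members, 18 were called lower in C4-2 (background 13.4%) and 10 in the LNCaP-labelled libraries (background 10.8%). None was called higher in either, though 6 effects in the LNCaP-labelled libraries and 1 in C4-2 were above 0. The count of 10 was 6 after the GC correction. The median LNCaP-labelled effect of -0.71 was -0.61 after that correction, -0.96 without combination replicate 1 and -0.47 without replicate 2. The difference was called negative for 11 and positive for 2 (backgrounds 13.9% and 11.5%), with a median of -0.49. Without LNCaP-labelled combination replicate 1 that median was -0.20, and without replicate 2 it was -0.75. The members that fell alike were the kallikreins KLK2 and KLK3 with AZGP1, SLC45A3, PMEPA1 and SPDEF. KLK3, which encodes prostate-specific antigen, went from 216 and 235 CPM to 53.6 and 41.4 CPM in C4-2 and from 405 and 362 CPM to 136 and 91.5 CPM in the LNCaP-labelled libraries. KLK2 went from 145 and 151 CPM to 60.2 and 46.8 CPM and from 84.4 and 65.3 CPM to 26.8 and 19.0 CPM, with an interval of the difference from -0.20 to 0.70.

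Other members were called in C4-2 alone. FOLH1, prostate-specific membrane antigen, stood at 931 and 894 CPM and then 273 and 269.9 CPM in C4-2, against 37.5 and 35.7 CPM and then 48.1 and 46.4 CPM in the LNCaP-labelled libraries (difference -2.12, SE 0.12, edgeR adjusted p 2.17e-13). STEAP2, a metalloreductase of prostate cells, went from 1292 and 1211 CPM to 461 and 329 CPM, against 116 and 103 CPM and then 105 and 94.9 CPM. NDRG1, an androgen and stress responsive gene, had effects of -1.22 and 0.89. FOXA1, a pioneer factor that overlaps TTC6, had effects of -2.17 and -0.95, and the latter passed 2-fold without LNCaP-labelled combination replicate 1 (-1.01), without R1881 replicate 1 and with all 12 libraries. The positive calls were STEAP4, which rested on LNCaP-labelled combination replicate 2 (adjusted p 0.0526 by edgeR without it), and HPGD, whose call was lost in 5 of the 8 fits that left out a library (differences from 0.82 to 1.16 there).

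**Figure D5:**
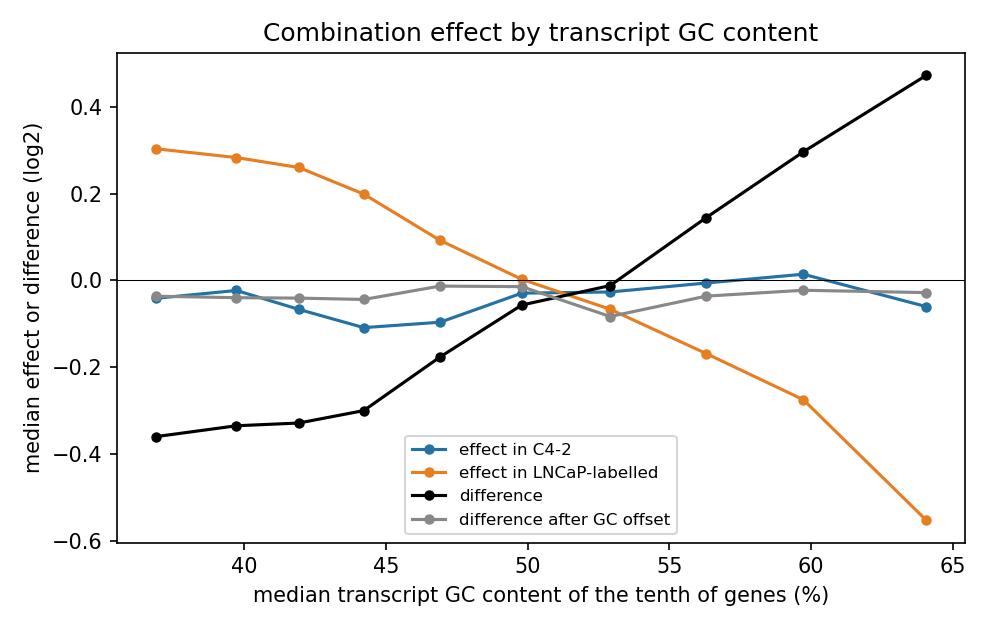
Median combination effect and difference (log2) in 10 equal groups of genes ordered by transcript GC content (%), for genes at 1 CPM or more in both lines. The LNCaP-labelled effect runs from 0.30 at the lowest GC content to -0.55 at the highest, C4-2 stays between -0.11 and 0.01, and after the GC correction the difference lies between -0.08 and -0.01.

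Transcript GC content moved with the LNCaP-labelled effect and so with the difference. In the 10% of genes with the lowest GC content (27.5% to 38.4%) the median LNCaP-labelled effect was 0.30, and in the highest (61.4% to 74.7%) it was -0.55, whereas the C4-2 medians were -0.04 and -0.06. Called differences were positive in 6.96% of the group with the lowest GC content and in 28.4% of that with the highest. Genes of LNCaP-labelled only that rose had a median GC content of 45.4% and those that fell one of 57.3%, against 48.5% over all genes tested. Opposite genes that rose in C4-2 had one of 56.8%. Libraries of one group also differed from each other with GC content, with a Spearman correlation across genes of 0.63 in the LNCaP-labelled combination, 0.18 in the LNCaP-labelled R1881, -0.55 in the C4-2 R1881 and -0.26 in the C4-2 combination group. The LNCaP-labelled trend was steeper without replicate 1, from 0.38 to -0.67, and flatter without replicate 2, from 0.22 to -0.41. With GC content held level, 4767 genes had a called difference, 4032 of them among the 5019, and 238 of the 329 opposite genes were still opposite. The part that GC content has in single genes was not tested beyond this correction.

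The integrated stress response split within itself. Of 29 members, 13 had a called negative and 5 a called positive difference (backgrounds 13.9% and 11.5%). The median difference was -0.83, and -0.87 without LNCaP-labelled combination replicate 1. Those that fell in C4-2 alone included 3 enzymes of serine synthesis, PSPH (108 and 101 CPM to 21.2 and 21.1 CPM, against 28.7 and 31.7 CPM and then 37.5 and 38.7 CPM), PSAT1 and PHGDH. ASNS, asparagine synthetase, was at 1102 and 1041 CPM and then 579 and 629.9 CPM in C4-2, and rose from 221 and 258 CPM to 697 and 687 CPM in the LNCaP-labelled libraries (difference -2.36, SE 0.13, edgeR adjusted p 9.75e-14). After treatment its levels in the lines lay close together, where with R1881 they had been far apart. ATF3, a stress transcription factor, stood at 128 and 128 CPM and then 1779.9 and 1879 CPM in C4-2, against 344 and 352 CPM and then 307 and 284 CPM (difference 4.07, SE 0.12, edgeR adjusted p 1.01e-18). DDIT4, an inhibitor of growth signalling, fell in both lines, by 1.19 in C4-2 and by 3.15 in the LNCaP-labelled libraries. DDIT3, the factor CHOP, rose alike, by 1.03 and 1.21. ATF4, the main activator of the program, had effects of -0.60 and 0.23.

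The element that this program uses, with the letters TGATGNAA on either strand, was found in 6 of 23 windows of the list (26.1%) and in 1.72% of all. Among the 23 members with a window, and with 1 window per gene, 1 member with a called difference held it in the 150 bases before the start. This was ASNS (chr7:97872409-97872558, minus strand, element in capitals, beginning 68 bases before the start).
ASNS: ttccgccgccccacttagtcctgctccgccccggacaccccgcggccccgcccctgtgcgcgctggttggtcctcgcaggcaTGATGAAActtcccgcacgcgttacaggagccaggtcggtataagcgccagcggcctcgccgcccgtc

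Of 20 NRF2 and antioxidant genes, 11 rose in C4-2 (background 7.60%), and in the LNCaP-labelled libraries 5 rose (background 6.98%) and 1 fell. The LNCaP-labelled count of 5 was 2 without R1881 replicate 2 and 3 after the GC correction. The difference was called positive for 7 and negative for none (backgrounds 11.5% and 13.9%). FTH1, ferritin heavy chain, went from 682 and 883 CPM to 5748 and 6001 CPM in C4-2 and from 306 and 384 CPM to 265 and 189 CPM in the LNCaP-labelled libraries (difference 3.52, SE 0.22, edgeR adjusted p 1.03e-09). FTL, ferritin light chain, rose in both, by 2.09 and 1.03. The enzymes NQO1 and TXNRD1 rose alike, NQO1 by 1.04 and 1.36 and TXNRD1 by 1.40 and 1.11. SRXN1, which repairs oxidised peroxiredoxins, was opposite, from 4.91 and 6.84 CPM to 33.8 and 43.0 CPM in C4-2 and from 4.89 and 5.25 CPM to 2.17 and 1.45 CPM. AKR1B10, an aldo-keto reductase, had 1 and 57 counts in the C4-2 groups and 2 and 1 in the LNCaP-labelled groups, too few in the latter for a stable difference.

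Of 20 ER chaperones, 4 had a positive and 1 a negative called difference (25% called, against 25.4% of all genes tested). HSPA5, the main chaperone of the list, went from 2418 and 2400.0 CPM to 6868 and 7308 CPM in C4-2 and stood at 2035 to 2463 CPM in the LNCaP-labelled libraries. CALR, calreticulin, rose there alone, from 564 and 561 CPM to 1444 and 1369 CPM. Of 25 cholesterol synthesis genes, 5 had a positive and 1 a negative called difference (24% called, against the same 25.4%), with MSMO1, a methylsterol oxidase, rising in C4-2 alone, by 1.52.

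Interferon and antigen presentation genes had 7 positive and 4 negative called differences among 27 (40.7% called, against 25.4% of all genes tested). TAP1, the peptide transporter, went from 15.4 and 15.7 CPM to 47.1 and 44.7 CPM in C4-2 and from 45.2 and 48.7 CPM to 28.8 and 21.8 CPM in the LNCaP-labelled libraries (difference 2.46, SE 0.17). The LNCaP-labelled effect of TAP1, at -0.90, passed 2-fold without combination replicate 1 (-1.09). MAPK output genes had 5 positive and 3 negative calls among 19 (42.1%), led among genes over 10 CPM by DUSP5, a phosphatase of ERK, with a difference of 3.82 (SE 0.30). TGF-beta targets had 6 positive and 3 negative calls among 17 (52.9%), including opposite calls in JUNB and BHLHE40, both transcription factors, with differences of 3.46 and 3.13. CCN2, a matrix factor, had no count in C4-2 with R1881 and 12 with the combination, and TIMP3 5 and then none, so no fold is given for either.

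Glycolysis and hypoxia genes had 3 positive calls and 1 negative call among 20 (20% called, against 25.4% of all genes tested), with the glucose transporter SLC2A1 falling from 163 and 174 CPM to 60.3 and 54.8 CPM in the LNCaP-labelled libraries alone. Splicing factors had 2 and 2 calls among 30 (13.3%), and HNRNPA1, with effects of -0.93 and 0.54, had the most negative difference of them, -1.48 (SE 0.13).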

How the data were processed

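Libraries were made by the authors from polyadenylated RNA and read from both ends, with TrimGalore for adapters and STAR for alignment. The deposited files hold whole-number counts per gene, made according to their headers with featureCounts (1.5.0-p1, Ensembl 83, GRCh38), with no strand option and no normalization. Overlapping genes on opposite strands were therefore not separated. Of 60675 listed genes, 56558 had a symbol from the reference tables.

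The 8 libraries of the 4 groups were fitted together. Groups came from the library titles, because a treatment text in the labels describes siRNA work. Genes were kept with filterByExpr, scaled by TMM and tested with edgeR 4.0.16 (quasi-likelihood, robust, R 4.3.3), and p-values were adjusted over the 19763 genes by the Benjamini-Hochberg method. SE is the absolute log2 value over the square root of F. CPM values use the TMM factors, and with 2 libraries per group each gene borrows its spread from the others. On simulated counts, 97.5% of 200 genes over 5 CPM changed by 2 on the log2 scale were recovered (19164 genes in the fit, 7 called without change). These counts were drawn separately for each gene, with no trend between replicates with GC content. The 7 calls therefore say nothing about calls that such a trend could make. Classes combine the 3 calls. The GC correction is a per-library offset smoothed within each line on transcript GC content.

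Members, classes, the 15 lists and the 7 marker lists were chosen with earlier results of these data known. Named genes were the demethylases KDM7A, KDM1A, KDM2A and PHF8 and the prostate genes FOXA1, KLK3 and TMPRSS2. Added to these were protein-coding genes (clone names left out), at 10 CPM or more in a group mean, 1 CPM or more in each line, and with libraries that do not overlap in each called line, taken by size of the difference or effect in each class. In C4-2 only and LNCaP-labelled only, the effect in the other line also had to be within 0.5 of 0. The 2 largest positive and 2 largest negative called differences of each list were also named. List members outside this rule, such as CDKN1A, MDM2, CDC25C, CCNB1, FTH1 and HSPA5, were chosen after their values were seen. TMPRSS2 had effects of -0.92 and -0.71, neither called.

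Replicate numbers were not used as a pairing. The deviations of replicate 1 from replicate 2 correlated at 0.04 between the groups of C4-2 and at -0.01 in the LNCaP-labelled libraries. Low-count genes enter these values, so they cannot exclude a pairing. The trend of these deviations with GC content had the same sign in both groups of each line. Alternatives were RLE scaling, TMM within each line, 2 other filters, DESeq2 1.42.0, replicate blocks, all 12 libraries, the GC correction, other thresholds, each line alone and leaving out each library.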

Additional observations from a re-analysis of the deposited data

Results flagged for a closer look

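The effects of the combination in the 2 lines differed, by the edgeR test of the difference itself, in 5019 genes. Of the genes named from the opposite class, the differences (C4-2 minus LNCaP-labelled, log2) were 6.10 for ACTA2, 6.09 for METRNL, 5.41 for PHLDA3, 5.27 for LIF and 4.84 for PCSK1N. In the reverse direction they were -5.19 for DDC, -4.12 for PIP5KL1, -4.05 for CARMIL3, -3.40 for SH2D3C and -3.38 for HMMR. Each was called by the same test. These 10 genes were picked for the size of this difference. The 2 libraries of a group had a Pearson r of 0.995 to 0.997 across genes, and each library was left out in turn. With 2 libraries per group, it cannot be told which of them stands apart.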

How the results depend on the processing

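The difference was called for 4382 to 5039 genes under the scalings, filters, tests and corrections tried, and for 4503 to 5277 with 1 library left out, against 5019. With the replicate number as a block it was called for 4872 genes, 4020 in C4-2 and 3375 in the LNCaP-labelled libraries, and with a block within each line for 4846. Replicate numbers were not used as a pairing in the main fit. With no fold condition the counts were 9431 for the difference, 10294 in C4-2 and 10496 in the LNCaP-labelled libraries, with 2691 opposite genes, 2633 in LNCaP-labelled only, 1188 the same way by different amounts, 2142 alike and 213 with a difference only. At 4-fold they were 1816, 1331 and 853, with 43 opposite genes, 645 in C4-2 only, 320 in LNCaP-labelled only, 6 the same way by different amounts, 83 alike and 802 with a difference only. The class of different amounts held 44 to 72 genes with 1 library left out (44 without C4-2 R1881 replicate 1), and the DNA replication list 5 to 10 called differences (10 without C4-2 combination replicate 1). DESeq2 called 4452 differences.

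Of 90 named genes, 62 kept their class in all 18 settings compared and 0 changed the sign of a called difference. The median difference of all genes ran from -0.13 to 0.03, so differences near 0 depend on scaling, and the split of the called differences, 2266 positive and 2753 negative, was 2687 and 2223 with all 12 libraries. Genes near 1 CPM are limited by depth, and 2 libraries per group limit the spread of each gene. Differences of list counts were added after the data were seen.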

Other observations

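The C4-2 libraries with 1 inhibitor, which enter the fits above only in the alternative with all 12 libraries, give levels for the genes described. FAM216A, which rose in the LNCaP-labelled libraries alone with the combination, stood at 15.2 and 14.2 CPM in C4-2 with R1881, at 38.3 and 36.4 CPM with namoline and at 36.7 and 35.0 CPM with TCE-5002, and at 14.8 and 11.9 CPM with both. POLE2 showed the same shape at lower levels, with 6.28 and 5.46 CPM, then 11.5 and 13.0 CPM with namoline, 9.85 and 9.33 CPM with TCE-5002, and 4.54 and 5.01 CPM with both. DDC, which fell with the combination, was at 119 and 105 CPM with namoline and at 120.1 and 112 CPM with TCE-5002, against 69.1 and 65.1 CPM with R1881. ATF3 was at 37.0 and 40.7 CPM with namoline, at 79.6 and 70.9 CPM with TCE-5002 and at 1797 and 1936 CPM with both, against 123 and 124 CPM with R1881. DIO3 was at 25.5 and 5.64 CPM with namoline and at 11.8 and 13.8 CPM with TCE-5002, against 624 and 683 CPM with both. HMMR was at 26.7 and 26.3 CPM with TCE-5002 and at 89.7 and 112 CPM with namoline. These CPM values use factors over all 12 libraries, and no test was made.

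Across 13064 genes at 1 CPM or more in both lines, the change in the LNCaP-labelled combination libraries (log2 of the ratio of mean CPM, pseudocount 0.5) had a Pearson r of -0.01 with the namoline change in C4-2, 0.02 with the TCE-5002 change and 0.08 with the combination change. For LNCaP-labelled combination replicate 1 alone, whose header names namoline without TCE-5002, the values were 0.02, 0.04 and 0.09, and for replicate 2 they were -0.04, -0.01 and 0.07. The genes share libraries within each change and are not independent.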
